A study of Mus musculus with 6 samples.

Results

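The genes examined were 9 that encode alpha subunits of voltage-gated sodium channels: Scn1a, Scn2a1, Scn3a, Scn4a, Scn7a, Scn8a, Scn9a, Scn10a and Scn11a. They were picked by symbol, a rule that uses no measured value, and all 9 were present among the 24623 genes tested. Dorsal root ganglia (DRGs) of levels L4/5 were taken from wild-type C57BL/6 males, adults aged 8 to 12 weeks, and no injury is named for them. The LBP group had been given LBP, a polysaccharide extract of wolfberry, by mouth at 100 mg/kg for 13 days, and the PBS group had been given the saline vehicle. There were 3 samples per group and 6 microarrays in all (GeneChip Mouse Gene 2.0 ST), on which many short probes report on the RNA of a gene. The labels of the PBS samples name PBS in the title, source and treatment fields, whereas the treatment protocol attached to them mentions LBP, and the former were followed. The methods speak of 3 separate groups of mice with 3 mice per group without stating whether an array pooled mice, so the p-values measure the spread between these arrays.

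Voltage-gated sodium channels open when a membrane is depolarized and carry the inward current of the action potential. The alpha subunit forms the pore and the voltage sensors, and beta subunits adjust its gating and its delivery to the membrane. Sensory neurons of the DRG express several alpha subunits, which differ between large myelinated neurons and small C-fibre neurons, and are commonly divided by whether the toxin tetrodotoxin blocks them. Mexiletine, a sodium channel blocker, was among the small molecules that the study took forward. Because whole ganglia were measured, fewer cells of a type and less RNA per cell cannot be told apart.

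Values are log2 intensities, on which a difference of 1 is a doubling. Median log2 intensity over all genes lay between 6.45 and 6.46 on every array. Probe sets differ in brightness, so no level of one gene was read against that of another. Neuronal markers were measured (Snap25 at 12.93 to 13.08 after LBP and Prph at 11.53 to 11.70), as were Avil, Isl1, Pou4f1 and Prdm12 of sensory ganglia, whose summed level (the log2 of their added intensities) was 12.35 to 12.54 after LBP and 12.36 to 12.53 after PBS. Across the 9 pan-neuronal markers the median log2 fold change was 0.02, and by limma 0 of them had an unadjusted p under 0.05. LBP replicate 2 stood apart in markers of the central nervous system, whose summed level was 10.28 on that array and between 8.63 and 8.77 on the others. Results are therefore also given without that array where its absence matters.

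Scn11a, which encodes the tetrodotoxin-resistant channel Nav1.9 of C-fibre nociceptors, was lower after LBP, and Scn1a, which encodes the Nav1.1 channel typical of large myelinated neurons, was higher, but neither passed adjustment over all genes. Scn10a, the gene of the other tetrodotoxin-resistant nociceptor channel, Nav1.8, was also lower on average. In the 6 other alpha subunits the groups overlapped. By limma, whose estimate of a gene's variance leans on that of the whole table, 0 of 9 alpha subunits had an adjusted p under 0.05, a threshold that 2 genes passed (0.00812% of those tested). At an unadjusted p under 0.05 there was 1 of 9, Scn11a, where the background was 4.72% of all genes (2.65% lower and 2.07% higher after LBP). In 3 of 9 the arrays of the 2 groups were fully separated, Scn10a and Scn11a with LBP below and Scn1a with LBP above, where the background was 9.63% of all genes (5.28% lower and 4.35% higher). With 9 genes these counts were not tested against the background. The log2 fold change was above 0 in 5 of the 9 and under 0 in 4, and its median was 0.05, beside -0.0011 over all genes.

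**Figure D1:**
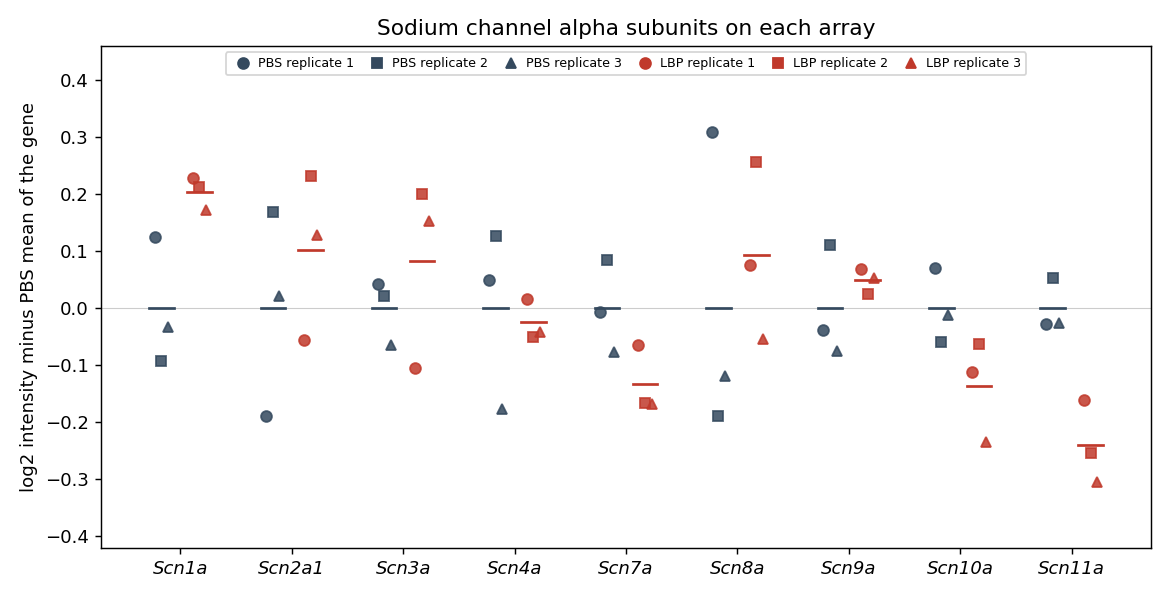
Log2 intensity of each alpha subunit gene (x axis) on each of the 6 arrays, minus the PBS mean of that gene (y axis, log2 units); dark symbols are PBS, red symbols LBP, symbol shapes the replicate numbers, and short bars the group means. The LBP symbols lie clear of the PBS symbols for Scn1a (above) and Scn11a (below), and for Scn10a by only 0.0048.

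The promoters of the genes that leaned furthest in either direction are shown to place their start sites and base composition beside their values. They come from RefSeq (GRCm38.p6) and are the 250 bases before the annotated start, written 5′ to 3′ on the gene's strand, with CpG dinucleotides in capitals. Scn11a, at chr9:119825457-119825706 on the minus strand, and Scn10a, at chr9:119719033-119719282 on the minus strand, lie in one neighbourhood of chromosome 9. Scn1a is at chr2:66440838-66441087 on the minus strand. The first of 2 windows listed for Scn8a, at chr15:100870395-100870644 on the plus strand, is added as a contrast in base composition.
Scn11a: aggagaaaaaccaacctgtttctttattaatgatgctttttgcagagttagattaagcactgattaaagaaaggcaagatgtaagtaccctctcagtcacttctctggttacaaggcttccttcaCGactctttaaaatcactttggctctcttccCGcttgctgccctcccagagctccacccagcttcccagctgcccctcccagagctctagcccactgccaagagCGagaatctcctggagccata
Scn10a: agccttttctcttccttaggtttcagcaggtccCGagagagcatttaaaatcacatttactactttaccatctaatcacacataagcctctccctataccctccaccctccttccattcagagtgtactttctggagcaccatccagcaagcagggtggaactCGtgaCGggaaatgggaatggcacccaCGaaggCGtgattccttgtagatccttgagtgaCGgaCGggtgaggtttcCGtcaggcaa
Scn1a: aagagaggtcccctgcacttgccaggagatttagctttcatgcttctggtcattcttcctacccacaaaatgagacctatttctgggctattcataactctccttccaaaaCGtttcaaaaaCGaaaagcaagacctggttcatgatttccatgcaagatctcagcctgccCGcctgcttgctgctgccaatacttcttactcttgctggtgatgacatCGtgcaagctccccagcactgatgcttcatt
Scn8a: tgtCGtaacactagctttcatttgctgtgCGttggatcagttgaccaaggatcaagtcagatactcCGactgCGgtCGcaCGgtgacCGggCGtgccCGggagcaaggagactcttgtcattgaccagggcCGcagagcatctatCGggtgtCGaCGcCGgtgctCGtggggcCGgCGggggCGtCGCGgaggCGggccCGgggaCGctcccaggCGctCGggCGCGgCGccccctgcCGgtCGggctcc
Scn11a had 3 CpG in these 250 bases, Scn1a 4 and Scn10a 8, against a median of 6 and an upper quartile of 16 over all 32851 windows. The Scn8a window shown had 30 CpG, more than 94.1% of all windows, and its other window, at chr15:100936021-100936270, had 9, more than 59.7%. Promoter entries matched 8 of the 9 members (10 windows), and the exception was Scn3a. The letters of 4 motifs were sought on both strands of the full windows of 300 bases, which also hold the first 50 bases after the start. RUNX (TGTGGT) occurred in both Scn2a1 windows and the GC box (GGGCGG) in the Scn7a window. The TATA letters (TATAAA) were in 1 of the Scn2a1 windows, with their first base at -84 from the start. Whether they act as a TATA box was not tested. AP-1 (TGANTCA) was in no window of a member. Over all windows RUNX was present in 16.8%, the GC box in 35.7%, AP-1 in 7.81% and TATA in 13.6%. In the Scn2a1 window that held both, the RUNX and TATA letters did not overlap. The absence of a match says only that these letters were not in the window.

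The tetrodotoxin-resistant channels of small neurons, Scn10a and Scn11a, both had lower means after LBP. Scn11a was at 11.17, 11.08 and 11.02 on LBP replicates 1, 2 and 3 and at 11.30, 11.38 and 11.30 on PBS replicates 1, 2 and 3. All LBP arrays were below all PBS arrays, with 0.13 between the nearest arrays of the 2 groups. Scn11a averaged 11.09 ± 0.07 with LBP and 11.33 ± 0.05 with PBS (SD, n = 3 each). The log2 fold change of Scn11a was -0.24 (standard error 0.09, 95% interval -0.45 to -0.03), or a change of -15.3% in intensity (95% interval -26.8% to -2.07%). Its p was 0.0290 and its adjusted p 1.00 by limma, and its exact permutation p (two-sided) was 0.1, the smallest that 3 arrays against 3 can give. By p, Scn11a stood at rank 699 of 24623 genes. Leaving out LBP replicate 3 gave an unadjusted p of 0.0810 by limma, and leaving out PBS replicate 1, 2 or 3 gave 0.0507, 0.0880 or 0.0611, while the log2 fold change stayed between -0.28 and -0.21 in the 6 fits without 1 array.

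Scn10a, whose channel carries most of the sodium current of the action potential upstroke in nociceptors, was at 11.77, 11.82 and 11.65 on the LBP arrays and at 11.96, 11.83 and 11.87 on the PBS arrays. LBP replicate 2 and PBS replicate 2 differed by only 0.0048, so that the separation of the groups rests on a gap smaller than the spread within either group (SD 0.09 after LBP and 0.07 after PBS, n = 3 each). For Scn10a the log2 fold change was -0.14 (standard error 0.10, 95% interval -0.35 to 0.08, p = 0.190 by limma, exact permutation p = 0.1). Relative to the PBS means, Scn10a minus Scn11a was 0.05, 0.19 and 0.07 on the LBP arrays and 0.10, -0.11 and 0.01 on the PBS arrays, which overlap.

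Most markers of C-fibre neurons also had lower means after LBP. All 4 markers of C-low-threshold mechanoreceptors (C-LTMRs), the fibres of light touch, were lower after LBP at an unadjusted p under 0.05 by limma. These were Th at -0.68, Slc17a8 at -0.43, Fam19a4 at -0.39 and Cdh9 at -0.32, and 0 of 4 passed adjustment over all genes. Over all genes, 2.65% were lower at this unadjusted threshold. The marker lists were chosen with earlier results of these data known, so the count of 4 is a description. The summed level of the C-LTMR markers was 10.72 to 10.83 after LBP and 11.10 to 11.49 after PBS. Of 8 nociceptor markers, 6 had negative log2 fold changes, with a median of -0.06, and the 1 of 8 at an unadjusted p under 0.05 was the irritant receptor gene Trpa1 (-0.37, p = 0.0106 by limma, exact permutation p = 0.1). Trpv1, the heat and capsaicin receptor gene, was at -0.08, Mrgprd at -0.13 and the peptide gene Calca at 0.02. The summed level of the nociceptor markers was 12.73 to 12.87 after LBP and 12.85 to 12.91 after PBS, so the groups overlapped. Their part in the difference of Scn11a was not tested. With each array centred on its pan-neuronal markers, Scn11a had a log2 fold change of -0.23 (unadjusted p = 0.0453 by limma, adjusted p = 1.00).

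Markers of other cell types also differed in their means. Of 5 satellite glia markers, 4 had positive log2 fold changes and 2 an unadjusted p under 0.05 by limma (Cdh19 at 0.49 and Kcnj10 at 0.29), while Fabp7 was at -0.30 (unadjusted p = 0.0581 by limma, exact permutation p = 0.2). The list had a summed level of 12.07 to 12.45 after LBP and 12.20 to 12.42 after PBS. All 6 fibroblast markers had negative log2 fold changes and 2 passed the same unadjusted threshold (Col3a1 at -0.43 and Dpt at -0.40). Their summed level was 10.75 to 11.38 after LBP and 11.23 to 11.68 after PBS. At this unadjusted threshold the background was 4.72% of all genes (2.65% lower and 2.07% higher after LBP). Of 10 skeletal muscle markers 9 had negative log2 fold changes (median -0.45). All 7 central nervous system markers had positive ones (median 0.39), and 0 of either list had an unadjusted p under 0.05 by limma. The median deviation of the central nervous system markers was 1.14 on LBP replicate 2, and -0.09 and 0.04 on LBP replicates 1 and 3. On the PBS arrays it was 0.05, -0.04 and 0.07. The part of these cell types in the values of the alpha subunits was not tested.

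Scn9a, which encodes Nav1.7, the tetrodotoxin-sensitive channel that amplifies small depolarizations in nociceptors, had groups that overlapped. It was at 9.52, 9.47 and 9.50 on the LBP arrays and at 9.41, 9.56 and 9.37 on the PBS arrays, and the LBP values lay inside the PBS range. For Scn9a the log2 fold change was 0.05 (standard error 0.10, p = 0.622 by limma, exact permutation p = 0.4). The 95% interval of -0.17 to 0.26 leaves out changes of intensity beyond -10.8% and 20.0%. One property of this row limits its reading. The deposited table lists Scn9a on the plus strand of chromosome 2, whereas RefSeq places the gene on the minus strand. In the other 7 members with a strand in both sources the strands were the same, and over 16052 genes matched by symbol they were opposite in 359 (2.24%), of which 335 were plus in the table. Whether the probes behind the Scn9a row read the channel transcript or its opposite strand was not tested.

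The channels of large myelinated neurons, Scn1a and Scn8a, both had positive log2 fold changes. Scn1a was at 8.97, 8.96 and 8.92 after LBP and at 8.87, 8.65 and 8.71 after PBS. Every LBP array was above every PBS array, with 0.05 between the nearest pair, LBP replicate 3 and PBS replicate 1. The LBP arrays lay close together (8.95 ± 0.03, SD, n = 3), and the PBS arrays less so (8.74 ± 0.11, SD, n = 3). LBP minus PBS was thus 0.20 on the log2 scale (standard error 0.10, 95% interval -0.01 to 0.42), a change of 15.2% in intensity. Its p was 0.0642 and its adjusted p 1.00 by limma, with an exact permutation p of 0.1. The p of Scn1a was 0.0361 without PBS replicate 1 and 0.194 without PBS replicate 2, with log2 fold changes of 0.27 and 0.16.

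Scn8a, which encodes Nav1.6, the main channel of nodes of Ranvier and of the axon initial segment, varied more between arrays than between groups. It was at 8.98, 9.16 and 8.85 on the LBP arrays and at 9.22, 8.72 and 8.79 on the PBS arrays. PBS replicate 1 was the highest of the 6 and LBP replicate 2 the next, and the groups overlapped. LBP against PBS, Scn8a differed by 0.09 on the log2 scale (standard error 0.14, 95% interval -0.23 to 0.42, p = 0.536 by limma, exact permutation p = 0.6). The difference of Scn8a was 0.25 without PBS replicate 1, 0.01 without LBP replicate 2 and -0.0022 without PBS replicate 2. The SD of Scn8a within groups was 0.22, larger than in 91.0% of the 2575 genes of like intensity, meaning a mean within 0.5 log2 units.

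The same 2 arrays stood highest in a list of genes of the node and the axon initial segment. The median deviation of its 13 measured genes from their PBS means was 0.02, 0.20 and -0.11 on the LBP arrays and 0.20, -0.12 and -0.08 on the PBS arrays. For Scn8a the corresponding values were 0.08, 0.26 and -0.05, and 0.31, -0.19 and -0.12. These 2 arrays were the highest in 10 of the 13 genes, and in the other 3 (Cntn1, Epb4.1l3 and Kcnq3) the highest were PBS replicate 1 and LBP replicate 1. Among the 10, Gldn, whose product gliomedin clusters nodal channels, was at 9.46 on LBP replicate 2 and 9.30 on PBS replicate 1 and between 8.79 and 9.02 on the rest. Cntnap1, the gene of the paranodal protein Caspr, was at 9.55 and 9.66 on these 2 arrays and between 9.09 and 9.29 on the rest. Scn8a was set beside this list after its values had been seen, so this is a description. The 7 markers of large-diameter neurons had a median deviation of -0.03 on LBP replicate 2 and 0.15, their highest, on PBS replicate 1. That of the 7 Schwann cell markers was 0.35, their highest, on LBP replicate 2 and 0.0025 on PBS replicate 1. LBP replicate 2 was also the array with the high central nervous system markers. The part of these cell types in the node genes and Scn8a was not tested. By limma, 0 of the 13 node genes and 0 of the 7 large-diameter markers had an unadjusted p under 0.05 between LBP and PBS.

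**Figure D2:**
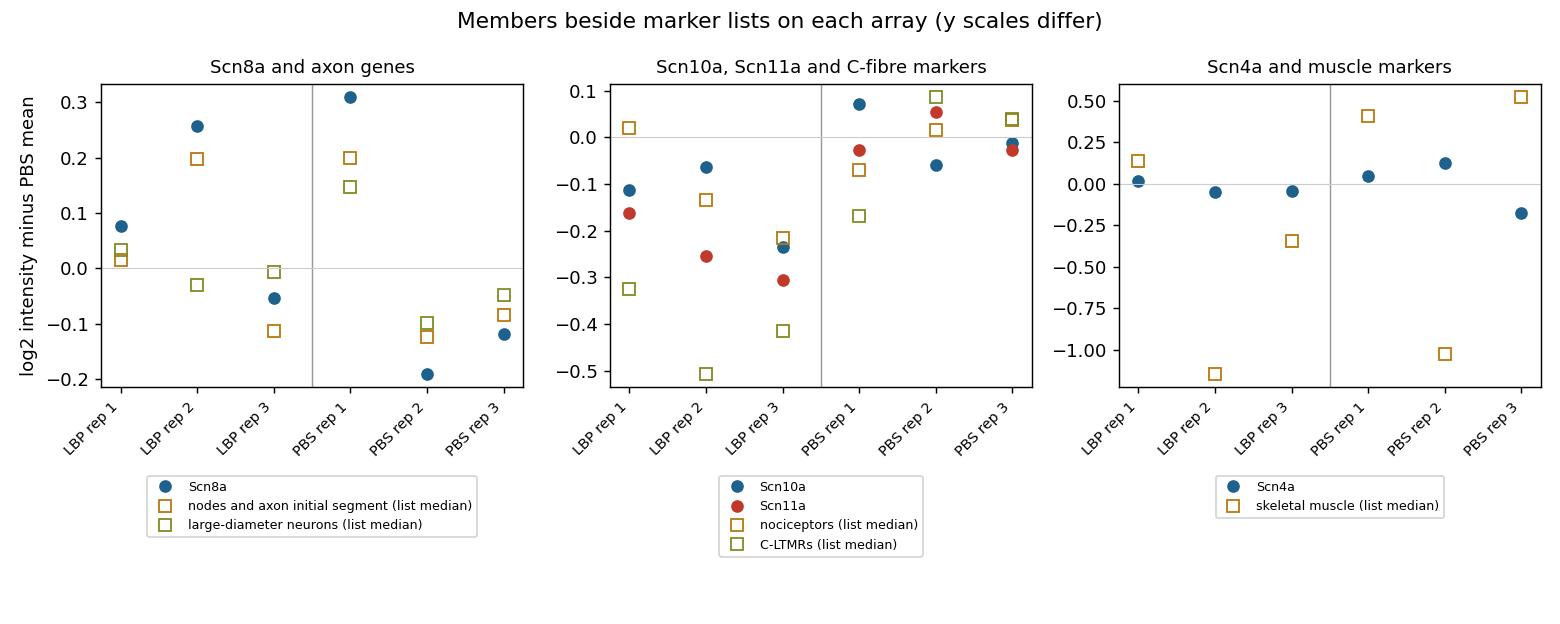
Deviation from the PBS mean (y axis, log2 units, scales differ between panels) on each of the 6 arrays (x axis) for Scn8a, for Scn10a and Scn11a, and for Scn4a (filled circles), beside the median of marker lists (open squares). Scn8a and the node list are highest on LBP replicate 2 and PBS replicate 1, Scn11a and the C-LTMR list are lower on each LBP array than on any PBS array, and Scn4a stays within 0.18 of its PBS mean where the muscle list spans -1.14 to 0.52.

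Scn2a1 and Scn3a, whose channels Nav1.2 and Nav1.3 are best known from the central nervous system and from developing neurons, showed overlapping groups. Scn3a was at 6.70, 7.005 and 6.96 after LBP and at 6.85, 6.83 and 6.74 after PBS, so that Scn3a differed by 0.08 (log2, standard error 0.11, 95% interval -0.16 to 0.33, p = 0.468 by limma, exact permutation p = 0.5). In rats Nav1.3 is known to return in DRG neurons after axotomy. Scn2a1, now named Scn2a, was at 7.57, 7.86 and 7.76 after LBP and at 7.44, 7.80 and 7.65 after PBS. Its log2 fold change was 0.10 (standard error 0.12, 95% interval -0.17 to 0.38, p = 0.428 by limma, exact permutation p = 0.6). LBP replicate 2, the array with the high central nervous system markers, held the highest value of both genes. Without that array the log2 fold change of Scn2a1 was 0.04 and that of Scn3a 0.02. Other arrays mattered as much, since Scn2a1 was at 0.0068 without PBS replicate 1 and Scn3a at 0.18 without LBP replicate 1. The part of the central nervous system markers in these values was not tested.

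Scn4a, the gene of the skeletal muscle channel Nav1.4, had a mean log2 intensity of 5.68 over the 6 arrays. It was at 5.71, 5.65 and 5.65 after LBP and at 5.74, 5.82 and 5.52 after PBS. For Scn4a the difference was -0.03 (log2, standard error 0.11, 95% interval -0.26 to 0.21, p = 0.819 by limma, exact permutation p = 0.9). The 10 skeletal muscle markers varied widely between arrays, with a summed level of 9.36 to 11.12 after LBP and 9.86 to 11.68 after PBS. Scn4a was highest on PBS replicate 2, where the median deviation of the muscle markers was -1.03. It was lowest on PBS replicate 3, where that median was 0.52. On LBP replicates 1, 2 and 3 and PBS replicate 1 the muscle medians were 0.14, -1.14, -0.35 and 0.41. The deviations of Scn4a on these arrays, 0.02, -0.05, -0.04 and 0.05, had the same order but were smaller than its SD within groups (0.11). Over all 6 arrays Scn4a and the muscle markers did not share an order. The part of the muscle markers in the values of Scn4a was not tested.

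Scn7a encodes Nax, an atypical member that responds to extracellular sodium rather than to voltage and is also found in Schwann cells. It was at 12.03, 11.93 and 11.92 after LBP and at 12.08, 12.18 and 12.01 after PBS. LBP replicate 1 was above PBS replicate 3, and the others were ordered LBP below PBS. The log2 fold change of Scn7a was -0.13 (standard error 0.10, 95% interval -0.35 to 0.08, p = 0.197 by limma, exact permutation p = 0.2). The 7 Schwann cell markers had a median deviation of 0.35 on LBP replicate 2 and of -0.25 on LBP replicate 1. The order of Scn7a on these 2 arrays was the opposite (-0.17 and -0.06). On LBP replicate 3 the Schwann cell median was -0.05 and Scn7a was at -0.17. The part of these markers in the values of Scn7a was not tested.

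**Figure D3:**
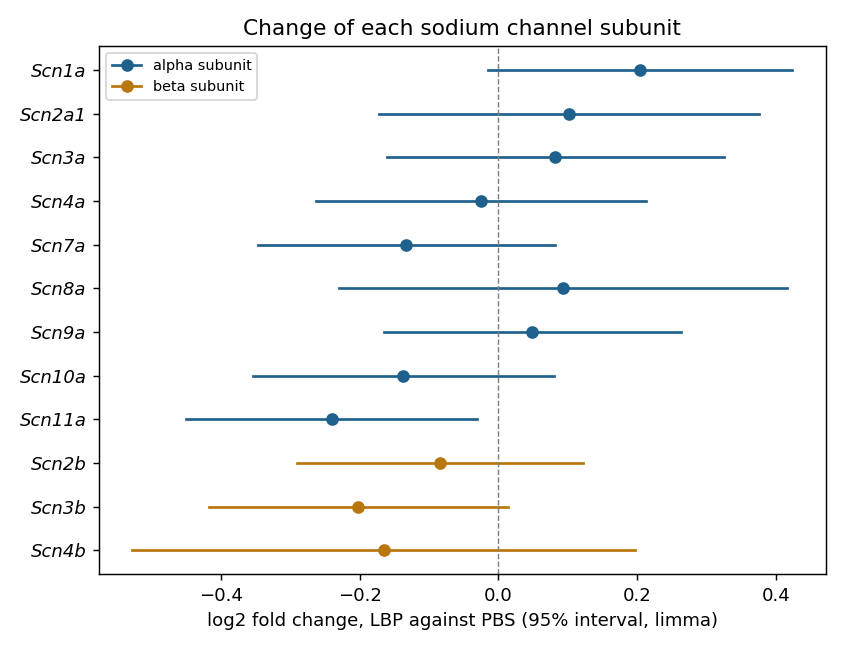
Log2 fold change of LBP against PBS (x axis) with its 95% interval from limma for the 9 alpha subunits (blue) and the beta subunits Scn2b, Scn3b and Scn4b (ochre), 3 arrays per group. The interval of Scn11a (-0.45 to -0.03) is the one among those plotted that does not reach 0, before any adjustment for the number of genes.

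Set beside each other, the differences of the alpha subunits were of both signs within one chromosome. On chromosome 2 lie 5 members (Scn1a, Scn2a1, Scn3a, Scn7a and Scn9a), of which Scn7a had a negative log2 fold change and the others positive ones. Both members on chromosome 9, Scn10a and Scn11a, had negative ones. The widest contrast was between Scn1a and Scn11a. Relative to their PBS means, Scn1a minus Scn11a was 0.39, 0.47 and 0.48 on the LBP arrays and 0.15, -0.15 and -0.01 on the PBS arrays. The pair was chosen as the extremes of the 9, so the gap carries no test.

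The members also differed in how tightly their replicates lay. The SD within groups was 0.06 for Scn11a, 0.07 for Scn9a and Scn7a, and 0.08 for Scn10a and Scn1a. Among genes of like intensity, 22.8% had a smaller SD than Scn11a, 31.7% than Scn10a, 23.3% than Scn7a, 16.4% than Scn9a and 21.7% than Scn1a. Scn4a (0.11), Scn3a (0.12) and Scn2a1 (0.16) stood at 30.4%, 43.1% and 72.4%. Scn8a, at 91.0%, was the most variable of the 9 on this measure.

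**Figure D4:**
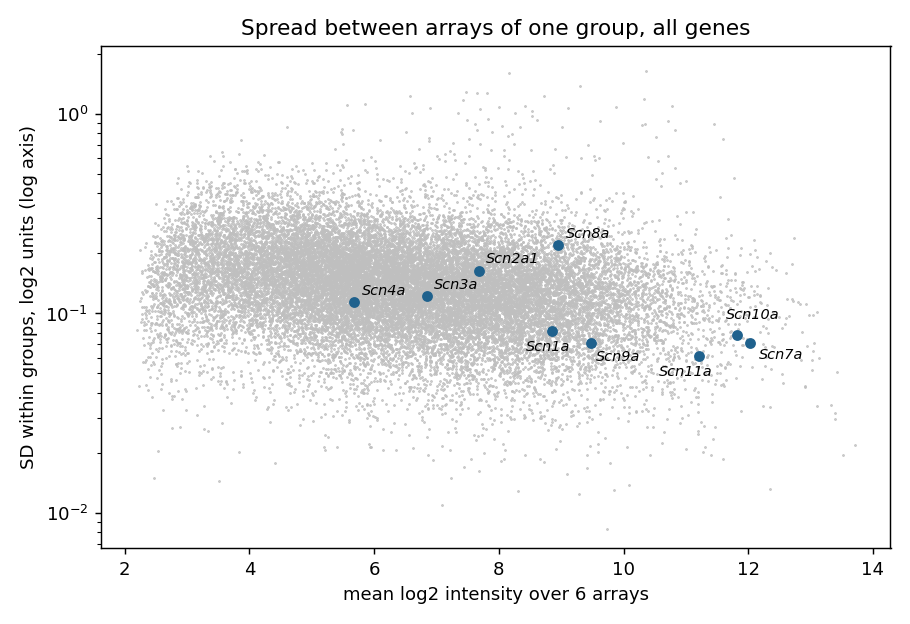
SD within groups (y axis, log2 units on a log axis) against mean log2 intensity over the 6 arrays (x axis) for all 24623 genes (grey) and the 9 alpha subunits (blue). Scn8a lies high among genes of its intensity, and Scn9a, at 16.4%, lies lowest of the 9 among genes of its own.

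Of the beta subunits described here (Scn2b, Scn3b and Scn4b), Scn3b had groups that did not overlap and the others had groups that did. Over all genes, 9.63% had groups that did not overlap (5.28% lower after LBP). Scn3b was at 10.03, 10.02 and 9.85 after LBP and at 10.18, 10.15 and 10.17 after PBS, with 0.12 between the nearest arrays. Its log2 fold change was -0.20 (standard error 0.10, 95% interval -0.42 to 0.01, p = 0.0631 by limma, exact permutation p = 0.1). Scn4b, whose product is linked to resurgent current, was at 9.56, 9.58 and 9.17 after LBP and at 9.93, 9.44 and 9.43 after PBS, which gave -0.17 (log2 fold change, standard error 0.16). The log2 fold change of Scn2b was -0.08 (standard error 0.09). LBP replicate 3 held the lowest value of both Scn3b and Scn4b.

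Among genes of proteins that bind, deliver or remove sodium channels, 0 of 18 had an unadjusted p under 0.05 by limma. In this list 18 genes were measured, 11 with a log2 fold change above 0 and 7 under 0, and the median was 0.03. Fgf14, an intracellular channel partner at the axon initial segment, was higher on every LBP array than on any PBS array (0.26, p = 0.0537 by limma, exact permutation p = 0.1), and Tmem233 (-0.20) was lower on every LBP array. Both are named because their groups did not overlap, which was seen first. In this list 1 gene was separated higher and 2 lower after LBP, where the background was 4.35% and 5.28% of all genes. Ank3, the gene of ankyrin-G, which anchors channels at the initial segment, was at 0.05, and Nedd4l, a ubiquitin ligase gene that removes them, at -0.09. Of 8 regulators of channel transcripts, 0 had an unadjusted p under 0.05 by limma. Rest, the repressor of neuronal genes, was at 0.11, Runx1, a regulator of nociceptor channels in mice, at -0.03, and Celf4, an RNA-binding protein gene, at -0.22 with groups that did not overlap.

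The genes most like a member over the 6 arrays were found by the root mean square difference after each gene was centred on its own mean. For Scn11a these were Fam114a1 (0.0185), Ttc9c (0.0204) and Serpinf1 (0.0226), where Scn11a itself deviated from its mean by 0.13. For Scn10a they were Srpr (0.0140), Rabl5 (0.0176) and Mapk1ip1l (0.0212), beside a deviation of 0.09. For Scn9a they were Eapp (0.0117), 2410003K15Rik (0.0135) and Zar1l (0.0178), beside 0.06. These likenesses over 6 arrays are a description.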

How the data were processed

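Per the study's methods, probe values were summarized in R by the authors (expresso, MAS5) and quantile normalization followed. The methods also give a rule for omitting arrays with outlying correlations, and all 6 arrays have values here. The deposited values behave as log2 intensities, 1 for each gene symbol on an array. The genome build is not given in the sources used here. Columns of the authors' own comparisons (fold changes, test statistics and p-values, and single arrays against the control) were not used. Of 24647 genes, 24 with symbols turned into dates were left out. Values ran from 2.02 to 13.8, and the correlation between arrays across genes was 0.990 to 0.994. Precision is limited by the number of arrays.

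The linear model of limma 3.58.1 (lmFit, eBayes; R 4.3.3) had treatment as its single factor, with 5.90 prior degrees of freedom, and Benjamini-Hochberg adjustment ran over all genes. The fit was first tested on simulated data. Members and gene lists were chosen with earlier results of these data known. The members and the beta subunits Scn2b, Scn3b and Scn4b are named, and some results of the lists are not reported here. Of the other lists, genes at an unadjusted p under 0.05 are named, and any others were named for their known role or their separated groups after their values were seen. For Scn9a, Scn10a and Scn11a the 3 nearest genes are named. Replicate numbers are shared by the groups, but the labels state no pairing, and array deviations of same-numbered samples correlated at 0.11, -0.03 and 0.08. Alternatives were 2 other scalings, a filter on dim genes, another model of the spread, array weights, the replicate number as a block and leaving out each array. Promoters came from RefSeq (GRCm38.p6) and were read with Python 3.11.15. Protein sequences were not used here.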

Additional observations from a re-analysis of the deposited data

How the results depend on the processing

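Under the 12 alternatives, 105 of 108 values of the alpha subunits kept their direction, and 0 had an adjusted p under 0.05 by limma (the lowest was 0.763). The log2 fold change of Scn4a was 0.0456 with array weights in place of -0.03. In the fits without 1 array it ran from 0.16 to 0.27 for Scn1a, 0.01 to 0.19 for Scn2a1, 0.02 to 0.18 for Scn3a, -0.11 to 0.0387 for Scn4a, -0.17 to -0.09 for Scn7a, -0.0022 to 0.25 for Scn8a, 0.01 to 0.10 for Scn9a, -0.17 to -0.09 for Scn10a and -0.28 to -0.21 for Scn11a. Scn4a and Scn8a changed sign without PBS replicate 2. Scn11a had an unadjusted p under 0.05 in 8 of 12 alternatives, and Scn1a in 4. Over all genes, 2 passed an adjusted p under 0.05, against 4 with dim genes left out, 6 with an intensity trend and robust hyperparameters, 4 with array weights and 4 with the replicate block. The cause of these differences was not tested. Without 1 array the number was 1 to 2, and it was 1 where LBP replicate 3 or any PBS array was left out. The replicate block changed no call of an alpha subunit, and under it the p of Scn11a was 0.0462.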
